A study of Mus musculus with 5 samples.

Results

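The genes that separated native blood tissue from cultured non-blood cells were described, and the level of a further library, MCC, was then read on them. The data were 5 mouse RNA-seq libraries of wild-type genotype, 1 per kind of cell. PB is the library of blood cells, given as CD45-positive in the design text and as plasma blood cells in the labels, and BM is the library of bone marrow. MEF holds mouse embryonic fibroblasts and iPSC holds induced pluripotent stem cells. MCC stands for the myeloid-like cell complex of the labels, and the study's title is about macrophages reprogrammed from fibroblasts. The sources used here do not give how the MCC and iPSC cells were made, the age and sex of the animals or whether animals were pooled.

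The genes were chosen by a rule of size. A gene entered the blood set when its lower level in PB and BM was at least 8-fold its higher level in MEF and iPSC, and the cultured set when the same held the other way round. A level of at least 5 CPM, which is the count divided by a TMM-scaled library size, was required in the lower library of the high pair, and counts under 3 were set to 3 reads. The blood set held 843 of the 9458 genes that reached the minimum in both PB and BM (8.91%), and the cultured set 649 of the 9840 that reached it in both MEF and iPSC (6.60%). Together they were 1492 of the 34970 genes in the table. The levels in PB, BM, MEF and iPSC chose these genes, so those levels are given as a description. MCC took no part in the choice. The sizes depend on the libraries used: without BM the blood set held 1399 genes and the cultured set 1054, and the cultured set held 1312 without MEF and 1205 without iPSC.

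Total counts ranged from 30078366 in PB to 47557598 in MCC, and 3 reads were worth between 0.0574 CPM in iPSC and 0.1004 CPM in PB. With 1 library per group there is no spread between replicates, so no p-value is given and every comparison is between these libraries, not between conditions. The bracketed 95% intervals on a fold between 2 libraries are exact (Clopper-Pearson, on the reads of the gene) and cover counting error only. They take reads as independent. Sequenced reads without molecular identifiers are not independent molecules, so the intervals may be too narrow even for counting error. PB and BM are different tissues, and MEF and iPSC different cells, so neither pair is a pair of replicates. Marker genes were read as a check of the labels. Pluripotency markers lay between 34.1 and 1310.3 CPM in iPSC and at no more than 0.740 CPM in MEF, PB and BM. In MCC their median was 0.174 CPM, with Sox2 the highest at 15.1 CPM. Fibroblast markers reached 8923 CPM in MEF, and their levels in iPSC were 0.0322% to 1.90% of those in MEF. Haemoglobin genes took 9.04% of the PB counts and 1.06% of the BM counts, so red cell RNA was present in the library described as CD45-positive. The library code of PB lies apart from the other 4, and any effect of that cannot be told apart from the PB group. In bulk libraries, fewer cells of a type and less RNA per cell cannot be told apart.

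Blood cells of all lineages descend from blood stem cells and share a set of proteins for moving through tissue and signalling from antigen or Fc receptors: the phosphatase CD45, the beta-2 integrins, regulators of the actin cortex and Syk-type kinases. The factor PU.1, encoded by Spi1, binds purine-rich sites with a GGAA core and is needed for macrophages and B cells. Fibroblasts and stem cells in culture grow attached to a surface, and attachment uses secreted matrix, cell junctions and a contractile actin skeleton. YAP and TAZ, which act through TEAD factors at CATTCC-type sites, respond to that attachment.

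The starts of a few genes are printed to show what the promoters of the sets look like at these sites. Each window runs from 250 bases before to 50 after a transcript start in RefSeq on GRCm38.p6. The first pair belongs to the blood set and carries the PU.1-type letters GAGGAAG, in capitals, read on the opposite strand as CTTCCTC. The second pair belongs to the cultured set and carries the TEAD-type letters CATTCC in capitals, read as GGAATG where they lie on the opposite strand. S100a8 encodes a neutrophil calcium-binding protein, and its window is chr3:90668821-90669120, plus strand. Trem2 encodes a lipid-sensing macrophage receptor, with its window at chr17:48346151-48346450, plus strand; it is the member with the highest ratio of MCC to the blood pair and was added after its values were seen. Timp1 encodes an inhibitor of metalloproteinases, at chrX:20869916-20870215, plus strand. Flnc encodes an actin cross-linker, at chr6:29432903-29433202, plus strand.
S100a8: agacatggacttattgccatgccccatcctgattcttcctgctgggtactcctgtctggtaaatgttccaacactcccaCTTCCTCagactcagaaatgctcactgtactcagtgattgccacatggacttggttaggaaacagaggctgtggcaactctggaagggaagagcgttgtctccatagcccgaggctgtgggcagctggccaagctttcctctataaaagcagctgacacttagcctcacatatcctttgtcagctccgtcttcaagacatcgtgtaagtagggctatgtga
Trem2: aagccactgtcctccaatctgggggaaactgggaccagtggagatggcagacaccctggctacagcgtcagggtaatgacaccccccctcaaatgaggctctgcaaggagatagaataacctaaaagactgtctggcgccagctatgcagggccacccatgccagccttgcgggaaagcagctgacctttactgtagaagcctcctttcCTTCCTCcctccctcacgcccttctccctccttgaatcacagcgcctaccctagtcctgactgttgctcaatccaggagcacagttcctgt
Timp1: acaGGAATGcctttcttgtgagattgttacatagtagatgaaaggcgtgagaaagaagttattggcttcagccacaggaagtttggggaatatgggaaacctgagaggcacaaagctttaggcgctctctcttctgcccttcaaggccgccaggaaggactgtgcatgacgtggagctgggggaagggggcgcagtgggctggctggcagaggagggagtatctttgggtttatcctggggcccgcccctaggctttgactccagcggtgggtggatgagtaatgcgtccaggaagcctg
Flnc: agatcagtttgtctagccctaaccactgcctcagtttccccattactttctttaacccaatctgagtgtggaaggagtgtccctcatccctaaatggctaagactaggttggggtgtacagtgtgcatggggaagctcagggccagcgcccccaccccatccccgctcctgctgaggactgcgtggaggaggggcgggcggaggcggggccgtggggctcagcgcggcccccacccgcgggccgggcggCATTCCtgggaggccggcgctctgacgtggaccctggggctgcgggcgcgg
The letters begin 171 bases upstream of the start in S100a8, 41 in Trem2, 247 in Timp1 and 1 in Flnc. Of the 10 genes that lead the blood set, S100a8 was the only one whose window held the PU.1 letters, with 8 of the 10 in the promoter table. Such a match is a description of letters and not evidence of binding.

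Searched on both strands, the PU.1 letters occurred in 25.7% of 719 promoter windows of 578 matched blood-set genes, in 12.8% of 674 windows of 493 matched cultured-set genes and in 13.6% of all 32851 windows. The blood set was thus the one above the share over all windows. Among blood-set windows the share was 28.5% for genes on which MCC was nearer the blood pair and 23.3% for the rest. The RUNX letters TGTGGT occurred in 22.0% of blood-set windows, 10.98% of cultured-set windows and 16.8% of all windows. The GC-rich SP/KLF letters CCGCCC showed the opposite order, with 66.3% in the cultured set, 29.8% in the blood set and 35.7% overall. The TEAD letters differed less, at 17.4% in the cultured set, 12.0% in the blood set and 14.7% overall. For the GATA letters AGATAA the shares were 11.7%, 5.04% and 11.2% in the blood set, the cultured set and all windows. AP-1 letters (TGANTCA) came to 8.76%, 6.53% and 7.81%. In percentage points the PU.1, RUNX and SP/KLF letters thus differed most between the sets, and as a ratio the GATA letters did. Base composition, which differs between promoters, was not tested.

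Haemoglobin genes had the largest ratios in the blood set, at least 63045-fold for Hba-a1 and 52671-fold for Hbb-bs against the floor of 3 reads; leaving out haemoglobins and antigen receptor segments, S100a9 and S100a8 came first. The ratio between the pairs had a median of 92.7-fold over the 843 genes, and in 282 of them the higher of MEF and iPSC was at the floor of 3 reads. Over all 9458 genes at the minimum level in both, the median log2 ratio was -0.49. S100a9, the partner of S100a8 in calprotectin, stood at 3583 CPM in PB and 19058 in BM, 1.34 in MCC, and 0 in MEF and 0.0765 in iPSC. S100a8 itself stood at 1.53 CPM in MCC, against 1516 in PB and 12249.6 in BM and 0.0694 in MEF and 0.0191 in iPSC. Cybb, the membrane subunit of the phagocyte NADPH oxidase, stood at 595 CPM in PB and 1195 in BM, 70.9 in MCC, and 0 in MEF and 0.0383 in iPSC. These 3 genes were abundant in both native libraries and at or near 0 in the other pair, while MCC held a low level of S100a9 and S100a8 and an intermediate level of Cybb. Ptprc, which encodes CD45, stood at 64.3 CPM in MCC, against 2327 in PB and 525 in BM and 0.0694 in MEF and 0 in iPSC. MCC was thus below both native libraries and far above MEF and iPSC for the gene that defines leukocytes. Rac2, the blood-cell GTPase of the Rac group, and Mpeg1, a pore-forming protein of phagocytes, had the same order, at 141 and 129 CPM in MCC against 798 and 691 CPM in PB. With haemoglobins and segments left out, the others among the 10 with the largest ratio by counting bound were Retnlg, Slfn4, Chil3 and Ctse.

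**Figure D1:**
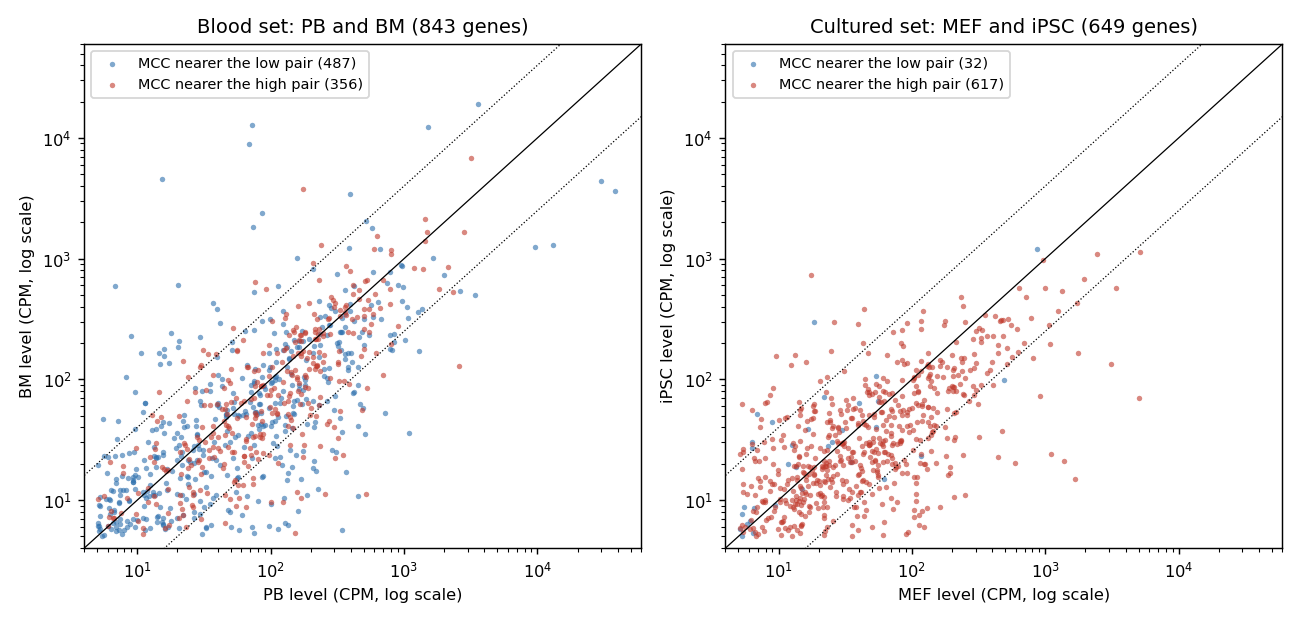
Levels of the blood set in PB and BM (left) and of the cultured set in MEF and iPSC (right), in CPM on log axes, with 1 point per gene; the solid line marks equal levels, the dotted lines 4-fold differences, and red points are genes on which MCC lay nearer the high pair. Red points make up 356 of 843 genes on the left and 617 of 649 on the right; outside the dotted lines lie 110 PB-skewed and 51 BM-skewed genes on the left and 87 MEF-skewed and 33 iPSC-skewed genes on the right.

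Within the blood set PB and BM were not alike for every gene. PB was at least 4-fold above BM for 110 members and BM at least 4-fold above PB for 51, with 682 within 4-fold. The PB-skewed end held Rgs1, a regulator of G-protein signalling in lymphocytes, at 341 CPM in PB and 5.62 CPM in BM. It also held Ccrl2, P2ry10 and Cxcl2, the last a neutrophil-attracting chemokine at 1092 and 35.8 CPM. The BM-skewed end held granule genes made by maturing neutrophils. Camp, encoding cathelicidin, stood at 4533 CPM in BM and 15.4 CPM in PB. Ngp stood at 12728 and 72.4 CPM, and Ltf, encoding lactoferrin, at 8927 and 69.2 CPM. MCC was under 1 CPM for each of these 3 granule genes. MCC lay nearer the blood pair for 40 of the 110 PB-skewed genes, 14 of the 51 BM-skewed genes and 302 of the 682 in between.

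MCC was read on the blood set by asking whether its level lay at or above the geometric mean of the lower native level and the higher cultured level. It lay on the blood side for 356 of 843 genes, or 42.2%. Of the sets chosen without 1 of the libraries, the one without BM had the lowest share, 27.2% of 1399 genes. MCC reached the lower of PB and BM for 86 genes (10.2%), against 57.0% of all genes at the minimum level in both. For 271 genes (32.1%) it was at or below the higher of MEF and iPSC or had at most 3 reads, and the remaining 486 lay in between. Most members were thus below both native libraries in MCC, and the largest class was the intermediate one. MCC reached 5 CPM for 395 members (46.9%), against a background of 91.5%. It had at most 3 reads for 175 (20.8%), 105 of them with 0 reads, against a background of 2.05%. The median log2 ratio of MCC to the lower native library was -3.59, with quartiles at -6.72 and -1.46. The quartiles show how widely the members were spread in MCC, and the gene lists give that spread by role.

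**Figure D2:**
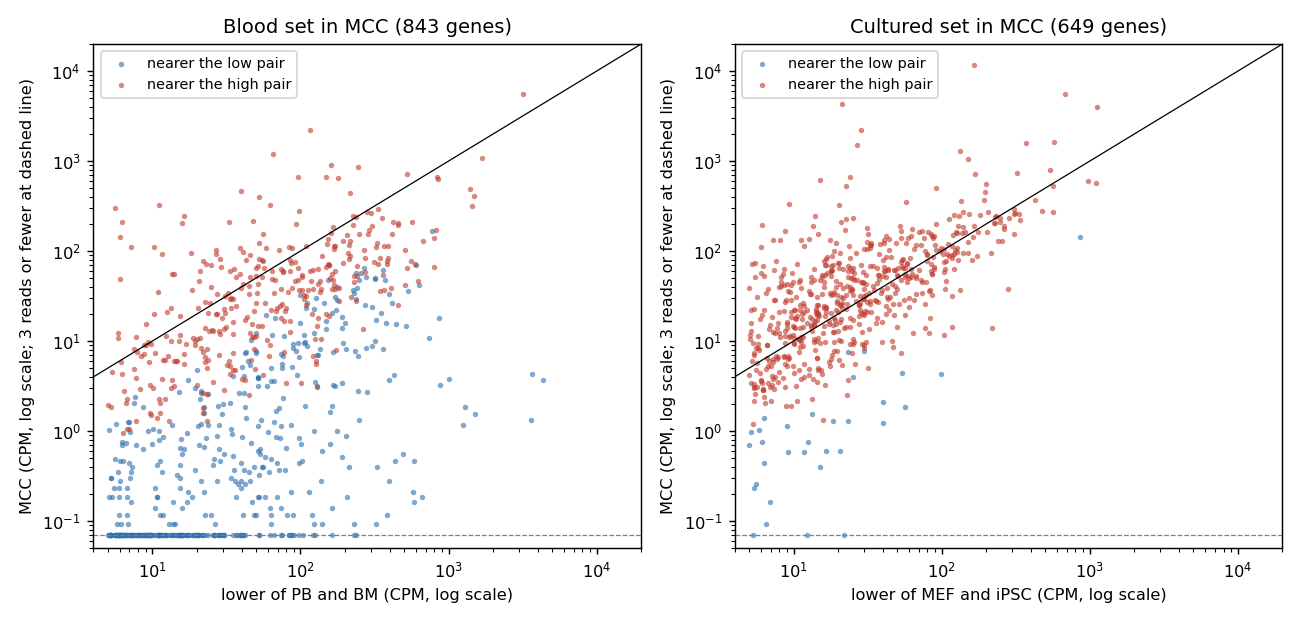
MCC level (vertical, CPM, log axis) against the lower level of the high pair (horizontal, CPM, log axis) for the blood set (left) and the cultured set (right), with 1 point per gene; the solid line marks equal levels, and genes with at most 3 reads in MCC lie on the dashed line. On the left 86 of 843 genes lie on or above the solid line and 175 on the dashed line, and on the right 348 of 649 and 3.

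Pan-leukocyte and motility genes were largely intermediate in MCC. Of 23 pan-leukocyte surface genes measured, 21 were in the blood set, and MCC was on the blood side for 15 of them, including 4 at or above the lower native level. The shares of the whole blood set were 42.2% and 10.2%. Laptm5, which encodes a lysosomal transmembrane protein, stood at 1179 CPM in PB and 835 in BM, 668 in MCC, and 0.671 in MEF and 31.5 in iPSC. The tetraspanin gene Cd53 stood at 154 CPM in MCC, against 561 in PB and 285 in BM and 1.71 in MEF and 0 in iPSC. For both genes MCC lay below both native libraries but within 2-fold of BM. At Cd48, the SLAM-family surface protein, MCC stood at 64.7 CPM, between BM at 50.3 and PB at 77.4 CPM. Slamf6, Cd69 and Spn, the last encoding CD43, were on the other side, at 0.486, 0.208 and 2.71 CPM in MCC.

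All 32 listed regulators of the leukocyte actin cortex and small GTPases were at the minimum level in PB and BM, and 27 were in the set. MCC was on the blood side for 19 of them, reached the lower native level for 0, and was at or below the cultured pair for 1, Tbc1d10c at 0.301 CPM. Over the whole blood set these shares were 42.2%, 10.2% and 32.1%. Coro1a, encoding coronin, stood at 1446 CPM in PB and 2146 in BM, 317 in MCC, and 0.948 in MEF and 6.54 in iPSC. Lcp1, encoding the actin bundler L-plastin, stood at 409 CPM in MCC, against 1486 in PB and 1668 in BM and 1.04 in MEF and 3.62 in iPSC. MCC was between the pairs for both, below the native libraries by a few fold. Of 11 leukocyte integrin and adhesion genes in the set, 5 were on the blood side in MCC, near the 42.2% of the whole set. Fermt3, the integrin activator kindlin-3, was close to PB at 273 against 282 CPM. Itgb2, the shared beta-2 chain, was at 65.8 CPM in MCC against 795 in PB, and its partner Itgam, the macrophage alpha chain, at 67.0 and 148 CPM. The lymphocyte partner Itgal, by contrast, was at 3.73 CPM in MCC, 4.09 in iPSC and 1044 in PB.

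The adaptor genes Tyrobp and Fcer1g were above native levels in MCC, while the B cell kinase gene Blk was near 0. Of 31 kinases, phosphatases and adaptors in the set, MCC was on the blood side for 17 and at or below the cultured pair for 10. Over the whole set these shares were 42.2% and 32.1%. Tyrobp, the adaptor DAP12, stood at 525 CPM in PB and 659.8 in BM, 713 in MCC, and 0.208 in MEF and 0 in iPSC. The Fc receptor gamma chain gene Fcer1g stood at 447 CPM in MCC, against 216 in PB and 263 in BM and 0.347 in MEF and 0.0765 in iPSC. These were the members of the list on which MCC exceeded both native libraries. The adaptor genes Hcst, encoding DAP10, and Lat2 were below both, at 4.74 and 7.52 CPM in MCC against 34.9 and 22.1 in BM. Btk and Vav1, a kinase and an exchange factor used by both myeloid and lymphoid cells, were intermediate at 48.002 and 117 CPM. Blk had 1 read in MCC, against 52.8 CPM in BM, the lower native library.

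Among the 17 lists of the blood side, macrophage genes had the highest median ratio of MCC to the native pair. Of 36 monocyte and macrophage genes in the table, 23 were in the blood set, 10 missed the minimum level in PB or BM and 3 fell short of 8-fold. MCC was on the blood side for 18 of the 23 and at or above the lower native level for 14, with a median log2 ratio to that level of 1.68 against -3.59 over the whole set. The whole-set shares were 42.2% and 10.2%. Csf1r, the receptor for the macrophage growth factor, stood at 550.5 CPM in PB and 246 in BM, 869 in MCC, and 1.57 in MEF and 2.26 in iPSC. Lyz2, encoding lysozyme, stood at 5597 CPM in MCC, against 3202 in PB and 6849 in BM and 1.57 in MEF and 0.191 in iPSC. Adgre1, encoding the macrophage antigen F4/80, stood at 111 CPM in PB and 52.2 in BM, 400.1 in MCC, and 0 in MEF and 0 in iPSC. MCC was the highest library for Csf1r and Adgre1 and lay between PB and BM for Lyz2. Fcgr1, the high-affinity IgG receptor gene, stood at 203 CPM in MCC, against 15.8 in PB and 18.02 in BM and 0 in MEF and 0 in iPSC, and MCC was 12.8-fold (11.7 to 14.1) above PB.

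The highest ratios of MCC to the lower native level were those of Trem2, Clec10a, Ms4a6d, P2ry6, Selenop and Ifi27l2a. Trem2 stood at 5.59 CPM in PB and 10.8 in BM, 301 in MCC, and 0.139 in MEF and 0.249 in iPSC, so MCC was 53.9-fold (46.3 to 63.2) above PB. Clec10a, a galactose-binding lectin, stood at 211 CPM in MCC, against 6.19 in PB and 20.6 in BM and 0 in MEF and 0 in iPSC, and MCC was 34.1-fold (29.5 to 39.6) above PB. For both genes PB was near the 5 CPM minimum, and MCC was far above both native libraries. Ms4a6d was 29.3-fold (26.7 to 32.3) above BM, and P2ry6, a receptor for UDP released by dying cells, was 23.5-fold (20.3 to 27.5) above PB. Selenop, encoding a secreted selenium carrier, stood at 141 CPM in PB and 116 in BM, 2221 in MCC, and 12.5 in MEF and 6.62 in iPSC, and MCC was far above the other 4 libraries. Ifi27l2a, an interferon-induced gene, stood at 1213 CPM in MCC, against 135 in PB and 65.6 in BM and 0.694 in MEF and 0.689 in iPSC. Not all myeloid genes were high: Ly6c2, a marker of inflammatory monocytes, stood at 0.185 CPM in MCC against 208 in PB and 822 in BM, and Cd300lf at 1.32 against 337 and 248.

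Genes for sensing and killing microbes were mostly below both native libraries in MCC but on the blood side. MCC was on the blood side for 13 of 16 innate sensor and inflammasome genes in the set and for 5 of 5 NADPH oxidase genes, and it reached the lower native level for 4 and 0 of them, with median log2 ratios of -1.89 and -1.16. Over the whole blood set, 42.2% were on the blood side and 10.2% reached the lower native level, with a median log2 ratio of -3.59. Casp1, the inflammasome protease gene, stood at 40.1 CPM in PB and 26.8 in BM, 93.4 in MCC, and 0.763 in MEF and 0 in iPSC, above both native libraries in MCC. Tlr7 and Tlr1 were at 40.1 and 23.5 CPM in MCC, between BM and PB in both cases. The oxidase genes Ncf1 and Ncf4, encoding cytosolic subunits, were at 152 and 62.6 CPM in MCC, each below both native libraries. The inflammatory cytokines were lower, Il1b among them although it counts on the blood side. Il1b stood at 3.10 CPM in MCC, against 2573 in PB and 129 in BM and 0 in MEF and 0.0191 in iPSC, and Tnf at 213 CPM in PB and 20.9 in BM, 2.27 in MCC, and 0.0462 in MEF and 0.421 in iPSC. PB was the highest library for both cytokines, and MCC was below 4 CPM.

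Receptors for growth factors and chemoattractants lay on both sides in MCC. Of 16 cytokine receptor genes in the set MCC was on the blood side for 5: Csf1r, Csf2rb, Csf2rb2, Il10ra and Il21r. The granulocyte receptor gene Csf3r was at 10.7 CPM in MCC against 735 in BM, and the lymphocyte receptor gene Il7r at 0.185 against 36.5. Of 16 chemoattractant receptor genes MCC was on the blood side for 5. Over the whole blood set the share was 42.2%. C5ar1, the complement C5a receptor gene, was intermediate at 105 CPM, while Ccr2, which takes monocytes out of marrow, was at 0.717 CPM against 159 in PB. Cxcr2, the neutrophil receptor gene, had 2 reads in MCC.

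Of 18 blood-lineage transcription factor genes in the set, 9 were on the blood side in MCC, beside 42.2% of the whole set. Spi1, encoding PU.1, stood at 261 CPM in MCC, against 299 in PB and 401 in BM and 0.116 in MEF and 0.459 in iPSC, and MCC was within 2-fold of both native libraries. Lyl1 and Lmo2, which encode factors of blood stem and progenitor cells, were at 109 and 76.7 CPM in MCC, between PB and BM. Irf8, a monocyte factor gene, was at 69.7 CPM against 156 in PB. On the other side, Myb, needed by progenitors, had 0 reads in MCC and stood at 39.7 CPM in PB and 153 CPM in BM. Pax5, which fixes the B cell fate, had 2 reads against 125 CPM in BM, and Gfi1, a granulocyte factor gene, had 1 against 11.5 CPM in PB. Myb, Pax5 and Gfi1 were thus at or near 0 in MCC, while Lyl1 and Lmo2 were not.

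Genes of the other blood lineages were mostly nearer the cultured pair in MCC. Neutrophil genes were on the blood side for 2 of 19 in the set, B cell genes for 2 of 17, T and NK cell genes for 2 of 18, Gimap GTPase genes for 0 of 6, and red cell genes for 0 of 9. The share of the whole blood set was 42.2%. S100a9 was 2669-fold (2064 to 3515) higher in PB than in MCC, and Retnlg 2754-fold (1450.4 to 6024) higher. Cd79a, a chain of the B cell receptor signalling unit, stood at 364 CPM in PB and 163 in BM, 0.139 in MCC, and 0.139 in MEF and 0.670 in iPSC, and MCC was below iPSC. Nkg7, a granule protein gene of NK and cytotoxic T cells, had 1 read in MCC against 89.9 CPM in PB. Gimap6, the highest of the lymphocyte GTPase genes by the lower native level, stood at 0.185 CPM in MCC, against 714 in PB and 52.8 in BM and 0.301 in MEF and 0 in iPSC. Hbb-bs, a beta-globin gene, stood at 38197 CPM in PB and 3654 in BM, 4.28 in MCC, and 0 in MEF and 0 in iPSC, so its low MCC level was still above the cultured pair. Among 72 immunoglobulin and T cell receptor segment genes MCC was on the blood side for 0 and at or below the cultured pair for 69. Without predicted genes, clones and segments MCC was on the blood side for 47.2% of 691 genes.

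A few genes of the lineage lists were on the blood side in MCC. They were Lcn2 and Hp of the neutrophil list, Cd22 and Cd72 of the B cell list, and Cd4 and Ccl5 of the T and NK cell list. Pf4 and F13a1 of the platelet list were on that side too. In MCC, Lcn2, Hp, Cd22, Cd4 and Ccl5 were at 7.98, 46.9, 6.87, 3.26 and 11.9 CPM. Each was below both native libraries, the lower of which was at 175, 622, 61.2, 20.1 and 28.4 CPM in that order. Of the 8 platelet and megakaryocyte genes in the set, Pf4 and F13a1 were above both native libraries: Pf4, a chemokine of platelets that macrophages can also make, stood at 248 CPM in MCC, against 21.4 in PB and 16.4 in BM and 0.0462 in MEF and 0.0191 in iPSC, and F13a1, the clotting factor XIII A chain, at 162 CPM in PB and 408 in BM, 901 in MCC, and 0.254 in MEF and 0.153 in iPSC. The other 6, among them Ppbp at 1.57 CPM in MCC and Gp9 at 0.116 CPM, were on the other side. Among the B cell genes Cd72 was at 10.2 CPM in MCC, below its 59.9 CPM in PB and 63.2 CPM in BM. However, 41.6% of the exon bases of Cd72 overlap the gene Tesk1 on the opposite strand, and the sources used here do not say whether counting used strand.

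Transcripts of the listed MHC class II genes were mostly low in MCC. All 10 class II genes of the list were in the blood set. MCC was on the blood side for 1, H2-DMb1, against 42.2% of the whole set. H2-Aa, an alpha chain gene, stood at 0.393 CPM in MCC, against 1018 in PB and 211 in BM and 0 in MEF and 0.249 in iPSC. Cd74, the invariant chain gene, stood at 2648 CPM in PB and 535 in BM, 35.8 in MCC, and 0.277 in MEF and 8.04 in iPSC. PB was the highest library for both, and MCC was just above iPSC for H2-Aa and above iPSC by more than 4-fold for Cd74. Ciita, the master regulator of the class, was at 0.278 CPM in MCC against 145 in PB and 39.7 in BM.

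**Figure D3:**
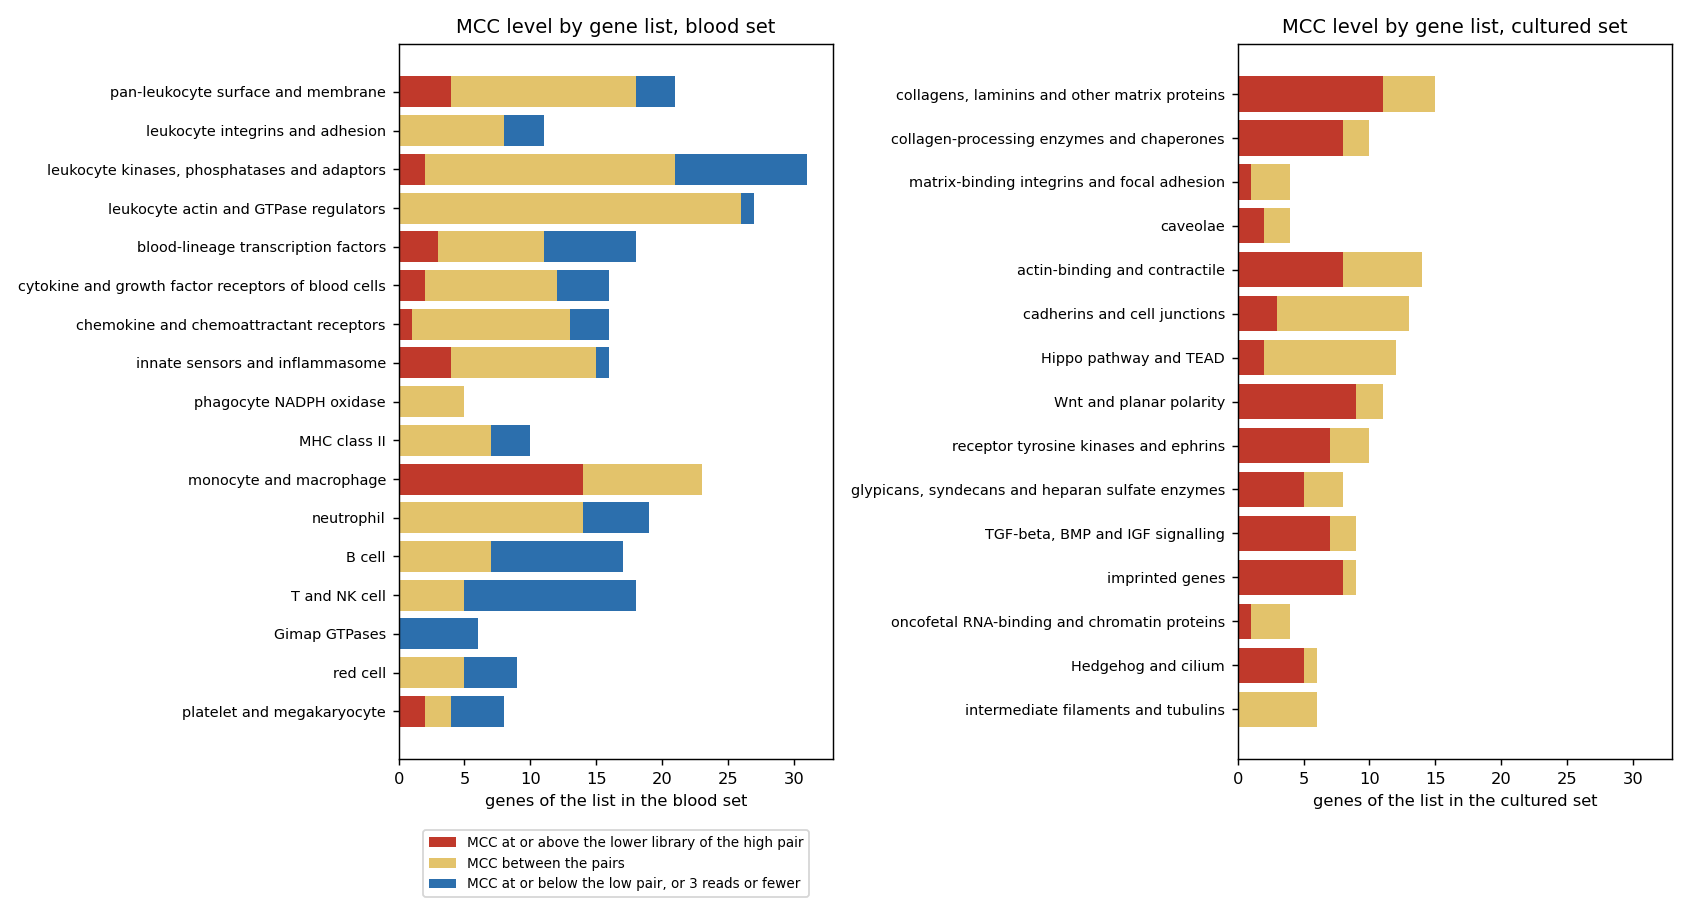
Number of genes of each list in the blood set (left) and in the cultured set (right), split by where MCC lay: at or above the lower library of the high pair (red), between the pairs (yellow), or at or below the low pair or with at most 3 reads (blue). Macrophage genes have the longest red bar on the left, 14 of 23, and no list on the right has a blue part.

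The share of genes on the blood side was higher at higher native levels and lowest among the genes closest to the threshold. It was 27.9% of 280 genes whose lower native level was 5 to 20 CPM, 47.4% of 323 at 20 to 100 CPM and 52.1% of 240 at 100 CPM or more. By ratio between the pairs it was 34.3% of 166 genes at 8- to 16-fold, 45.5% of 187 at 16- to 64-fold and 43.7% of 490 at 64-fold or more. The geometric mean that sets the side lies further below the native level where the ratio is larger. The split by ratio is thus partly fixed by the measure. The median log2 ratio of MCC to the lower native library was -2.47, -2.78 and -4.87 in the same order of ratio. In the order of native level, MCC was at or above the lower native level for 9.29%, 14.9% and 5%. Both splits include the 72 antigen receptor segments, with 0 on the blood side and a median lower native level of 9.64 CPM. Shares within the splits were not computed without them. The genes just inside the threshold were H2-K1, Mbp and Nlrp12, with ratios of 8.03, 8.06 and 8.09. Just outside lay Oas1b, Ogfrl1 and Etohd2, with ratios of 7.98, 7.94 and 7.89, and 30.9% of the exon bases of Etohd2 overlap Isca1 and Tut7 on the opposite strand. Of the blood set 701 genes (83.2%) were annotated as protein-coding in GENCODE M21 and 61 as immunoglobulin variable segments.

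The cultured set had a smaller median ratio between the pairs than the blood set. The ratio between the pairs had a median of 30.3-fold over 649 genes, and in 96 of them the higher of PB and BM was at the floor. Over all 9840 genes at the minimum level in both, the median log2 ratio was -0.28. Timp1 had the largest counting bound of the ratio, at 192 CPM in MCC, against 0.201 in PB and 0.221 in BM and 609.8 in MEF and 262 in iPSC. Flnc, encoding filamin C, stood at 0.0335 CPM in PB and 0.0982 in BM, 191 in MCC, and 442 in MEF and 165 in iPSC. Peg3, an imprinted zinc finger gene, stood at 93.4 CPM in MCC, against 0.0335 in PB and 0.0491 in BM and 110.2 in MEF and 109 in iPSC. All 3 were below 1 CPM in both native libraries, and MCC was within 2-fold of the lower cultured library. Cav1, which builds the membrane pits called caveolae, and Pxdn, a peroxidase that cross-links basement membrane, were at 203 and 145 CPM in MCC against 229 and 162 in iPSC. Cdkn2a, the locus of the cell cycle inhibitor p16 and of ARF, was at 169 CPM in MCC, 84.4 in MEF and 73.4 in iPSC. Of the 10 genes with the largest counting bound of the ratio, MCC was below the lower cultured library for 8 and above it for Flnc and Cdkn2a. It was furthest below for Unc5b, Cspg4 and Hspb1, at 14.0, 11.6 and 14.3 CPM against 218, 103 and 117 CPM in the lower cultured library. The last of the 10 was Hspb8, at 45.9 CPM in MCC, 108 in MEF and 119 in iPSC. Of the set 638 genes (98.3%) were annotated as protein-coding.

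MEF was the higher library of its pair for 433 of the 649 genes. MEF was at least 4-fold above iPSC for 87 genes and iPSC at least 4-fold above MEF for 33, with 529 within 4-fold. Crabp1, a carrier of retinoic acid, stood at 1681 CPM in MEF and 15.1 in iPSC. Acta2, smooth muscle actin, stood at 5086 and 70.6 CPM, and Col12a1 at 1104 and 23.9 CPM. At the other end Igfbp2, a binding protein for insulin-like growth factors, stood at 727 CPM in iPSC and 17.5 in MEF, and the epithelial keratin gene Krt19 at 159.7 and 13.3 CPM. For 28 members iPSC was at no more than 10% of MEF, beside 0.0322% to 1.90% for the fibroblast markers, and whether a small share of fibroblasts in the iPSC culture brought any of these over the minimum was not tested. Without those 28 genes 621 were left, and MCC was on the cultured side for 94.8% of them. The median iPSC level was 69.6% of that in MEF over the whole set.

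MCC was on the cultured side for 617 of 649 genes, or 95.1%. With MEF left out of the pair the share was 56.3% of 1312 genes, and with iPSC left out it was 90.8% of 1205. MCC reached the lower of MEF and iPSC for 348 (53.6%), against 62.5% of all genes at the minimum level in both, and was at or below the native pair for 7. It reached 5 CPM for 568 members (87.5%), against 96.9% of all genes, and had at most 3 reads for 3, against a background of 0.0610%. Nearly all members were thus nearer the cultured pair in MCC, about as many above as below the lower cultured level. The median log2 ratio to the lower cultured library was 0.16, with quartiles at -0.71 and 1.10. The share on the cultured side was 93.4% of 304 genes whose lower cultured level was 5 to 20 CPM, 95.7% of 257 at 20 to 100 CPM and 98.9% of 88 at 100 CPM or more. For the 87 MEF-skewed genes MCC was on the cultured side for 84, and at least 4-fold above iPSC for 38 and at least 4-fold below MEF for 15. For the 33 iPSC-skewed genes it was on the cultured side for 28, at least 4-fold below iPSC for 23 and at least 4-fold above MEF for 7.

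Most matrix genes of the set were at or above the lower cultured level in MCC. Of 31 collagens, laminins and other matrix genes in the table, 15 were in the cultured set, 14 fell short of 8-fold and 2 missed the minimum. MCC was on the cultured side for 14 and at or above the lower cultured level for 11, against 95.1% and 53.6% of the whole set. Sparc, encoding a collagen-binding protein, stood at 0.770 CPM in PB and 30.6 in BM, 3986 in MCC, and 5164 in MEF and 1127 in iPSC. Col3a1, a fibrillar collagen gene, stood at 11734 CPM in MCC, against 1.37 in PB and 3.68 in BM and 1769.7 in MEF and 166 in iPSC, and MCC was 70.7-fold (69.2 to 72.2) above iPSC. MCC was below MEF for Sparc and above it for Col3a1. Col6a1 was at 1065 CPM in MCC and 807 in MEF, and the basement membrane genes Col4a1 and Hspg2 were lower in MCC, at 269 and 601 CPM against 1001 and 967 in MEF. Lama1, a laminin of early embryos, was the exception, at 0.764 CPM in MCC. All 10 collagen-processing genes in the set were on the cultured side, near the 95.1% of the whole set. Among them was Serpinh1, the collagen chaperone, at 0.402 CPM in PB and 6.06 in BM, 1630.5 in MCC, and 3374 in MEF and 571 in iPSC.

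Most of the listed attachment genes did not enter the cultured set. Of 32 matrix-binding integrin and focal adhesion genes 4 were in it, 20 fell short of 8-fold and 8 missed the minimum. Of 7 caveola genes 4 were in it, and of 32 cadherin and junction genes 13. All of these members were on the cultured side in MCC, near the 95.1% of the whole set, and MCC reached the lower cultured level for 1, 2 and 3 of them, against 53.6% of the whole set. Bcar1, a scaffold at focal adhesions, stood at 37.0 CPM in MCC, against 0.0670 in PB and 0.540 in BM and 132 in MEF and 134 in iPSC. Gja1, encoding connexin 43, stood at 0.0670 CPM in PB and 7.81 in BM, 104 in MCC, and 64.7 in MEF and 159 in iPSC. MCC was below the cultured pair for Bcar1 and between MEF and iPSC for Gja1. MCC was on the cultured side for 13 of 14 actin-binding and contractile genes. The contractile genes that were highest in MEF were lower in MCC: Acta2 was at 162 CPM against 5086, Cnn1 at 2.15 against 206 and Tpm2 at 116 against 914. Acta2 was nevertheless above its iPSC level of 70.6 CPM, and Cnn1 was below its iPSC level of 10.5 CPM.

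Of 12 Hippo pathway genes in the set MCC was on the cultured side for 10, against 95.1% of the whole set. Ccn2 and Tead4 were the others. Yap1 stood at 96.8 CPM in MCC, against 1.17 in PB and 0.736 in BM and 183 in MEF and 127 in iPSC, and Tead1 at 0.0670 CPM in PB and 0.516 in BM, 96.3 in MCC, and 246 in MEF and 150.1 in iPSC. For both, MCC was below the cultured pair and far above the native pair. Ccn1 and Ccn2 are both YAP targets; Ccn1 stood at 231 CPM in MCC, against 0.134 in PB and 1.52 in BM and 551 in MEF and 283 in iPSC, whereas Ccn2 stood at 0 CPM in PB and 1.79 in BM, 4.26 in MCC, and 486 in MEF and 99.0 in iPSC. MCC was near iPSC for Ccn1 and 23.3-fold (20.1 to 27.1) below iPSC for Ccn2. Tead4, the family member of the early embryo, was at 0.440 CPM in MCC against 27.1 in iPSC.

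Signalling and imprinted growth genes included the highest MCC levels relative to the cultured pair. Of 11 Wnt genes in the set all were on the cultured side, as were 95.1% of the whole set. MCC was at or above the lower cultured level for 9 of these 11, against 53.6% of the whole set. Sfrp1, a secreted Wnt antagonist, stood at 2217 CPM in MCC, against 0.167 in PB and 1.18 in BM and 48.1 in MEF and 28.5 in iPSC, and MCC was 77.8-fold (73.9 to 81.9) above iPSC. Of 9 imprinted genes, all were on the cultured side and 8 at or above the lower cultured level. Over the whole cultured set the shares were 95.1% and 53.6%. H19, an imprinted noncoding RNA, stood at 0.703 CPM in PB and 0.417 in BM, 4317 in MCC, and 1374 in MEF and 21.2 in iPSC. Dlk1, a Delta-like surface protein of immature mesenchyme, stood at 1512 CPM in MCC, against 0.234 in PB and 0.295 in BM and 33.3 in MEF and 27.0 in iPSC. MCC was above both cultured libraries for Sfrp1, H19 and Dlk1. Plagl1 and Cdkn1c were also above both, at 188 and 105 CPM, whereas Peg3 was below both and Igf2, at 40.2 CPM, lay between MEF and iPSC. Vegfd, a lymphatic growth factor gene, was at 330.5 CPM in MCC against 13.2 in MEF.

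Of the receptor and embryonic growth lists, the set held 10 of 26 receptor tyrosine kinase and ephrin genes, 8 of 20 glypican and syndecan genes, 9 of 24 TGF-beta, BMP and IGF genes and 6 of 20 Hedgehog and cilium genes. Another 10, 10, 12 and 9 of them fell short of 8-fold, and 1 glypican and syndecan list gene was in the blood set. Every one of these members of the cultured set was on the cultured side in MCC, near the 95.1% of the whole set. Fgfr1 was at 228 CPM in MCC against 366 in MEF and 112 in iPSC, and the collagen receptor gene Ddr2 at 174, 313 and 62.9. Gpc3 and Igfbp3 were above both cultured libraries in MCC, at 88.3 and 234 CPM. Hmga2, an embryonic chromatin protein gene, and Igf2bp1, an embryonic RNA-binding protein gene, were lower, at 12.4 and 9.79 CPM in MCC against 305 and 39.3 in MEF. For the serine and one-carbon list 0 of 12 genes were in the set, and 11 fell short of 8-fold.

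MCC lay nearer the native pair for 32 members, and those lowest against the cultured pair by counting bound were Tnnt2, Hoxd13, Slc6a15, Elovl4, Hbegf and Nes. Tnnt2, cardiac troponin T, stood at 0.1004 CPM in PB and 0.0736 in BM, 0.0694 in MCC, and 22.1 in MEF and 71.0 in iPSC. Hoxd13, a homeobox gene of the distal limb, stood at 0.0694 CPM in MCC, against 0 in PB and 0 in BM and 15.1 in MEF and 12.2 in iPSC. Both had 3 reads in MCC. Nes, the intermediate filament gene of neural progenitors, stood at 0.234 CPM in PB and 0.123 in BM, 1.85 in MCC, and 56.1 in MEF and 65.9 in iPSC, and it was 30.3-fold (24.2 to 38.3) lower in MCC than in MEF. Hbegf, a ligand of the EGF receptor, was at 1.23 CPM in MCC against 40.2 in iPSC, and the solute carrier gene Slc6a15 and the fatty acid elongase gene Elovl4 had 1 and 4 reads. Dusp9, a MAP kinase phosphatase, was at 1.30 CPM in MCC, 18.3 in MEF and 297 in iPSC. The genes just inside the threshold of the cultured set were Rhbdf1, Fgfr1 and Adgrl2, with ratios of 8.0004, 8.03 and 8.04, and just outside lay Csrp2 and Syde2, with 7.97 and 7.93.

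**Figure D4:**
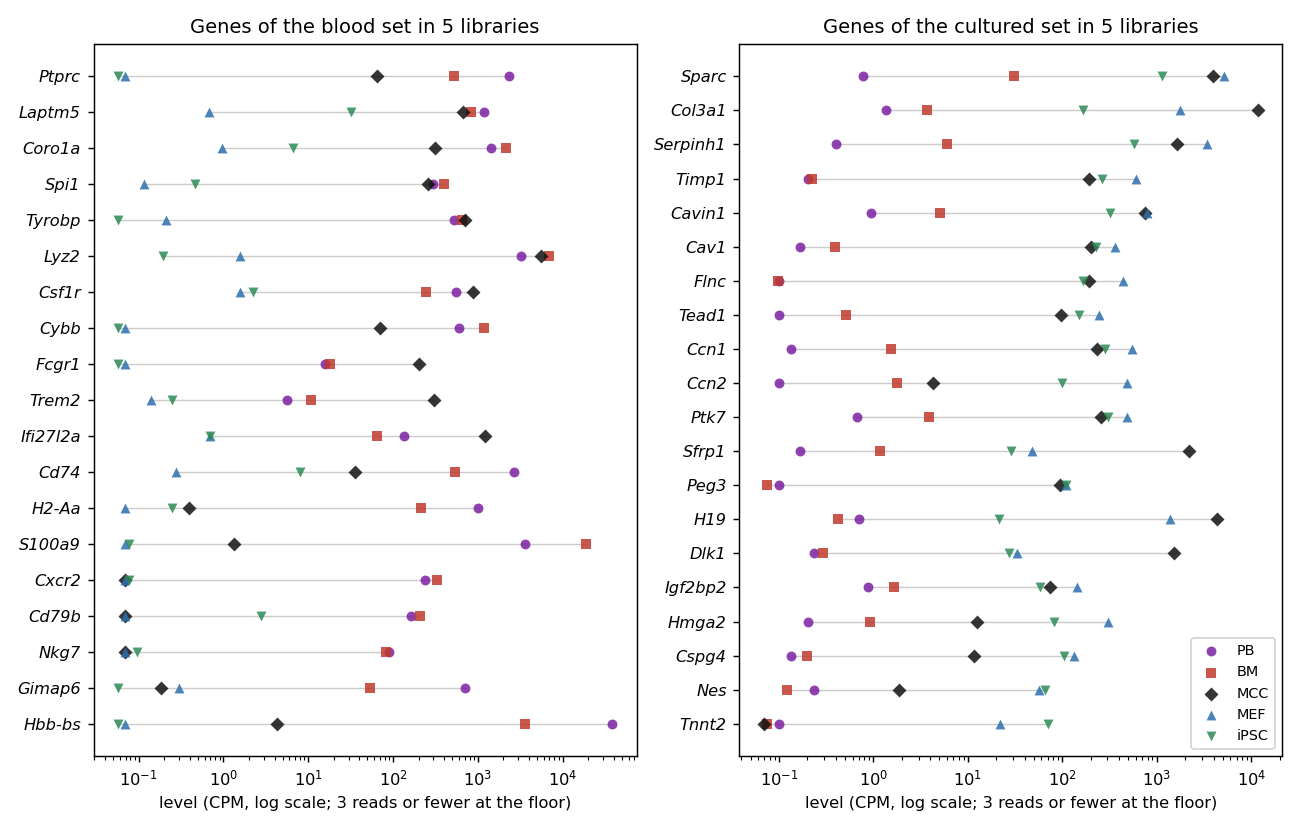
Level of 19 genes of the blood set (left) and 20 of the cultured set (right) in each of the 5 libraries, in CPM on a log axis, with values of at most 3 reads drawn at the floor; each symbol is 1 library. MCC (black) lies at or right of the native symbols for Tyrobp, Csf1r, Fcgr1, Trem2 and Ifi27l2a. It lies among or near the cultured symbols for Cxcr2, Nkg7, Cd79b, Gimap6 and H2-Aa. In the right panel it lies beyond both MEF and iPSC for Col3a1, Sfrp1, H19 and Dlk1. For the other genes it lies between them or left of both, furthest left for Hmga2, Cspg4, Ccn2, Nes and Tnnt2.

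Set beside each other, MCC was at least 4-fold above MEF for 484 of the 843 blood-set genes and at least 4-fold below PB for 632 and below BM for 609. Of the 649 cultured-set genes it was at least 4-fold below MEF for 82 and at least 4-fold above MEF for 19. Shares over all genes were not computed for these 4-fold counts. Both patterns were present in the same library: many blood genes were above their MEF level, and few cultured-set genes were far below it. The rule chose the blood set for low MEF levels and high PB and BM levels, and the cultured set for high MEF levels. That choice itself favours MCC above MEF and below PB and BM on the blood set, so these counts are a description. MCC carried fibroblast markers at 99.8 to 6563 CPM beside macrophage markers at 400.1 to 5597 CPM, and the part of a mixture of cells in these values was not tested.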

How the data were processed

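Each of the 5 libraries (PB, BM, MCC, MEF, iPSC) was sequenced once, from polyA RNA after Trizol extraction, per the labels' protocols. The authors deposited 1 table of whole-number read counts for 34970 gene symbols, not normalized; STAR, featureCounts and mm10 were used, per the submitters' processing notes. The sources used here give no tool versions, annotation or strand setting. From those counts, CPM values were computed with edgeR 4.0.16 (TMM over all 5 libraries) in R 4.3.3, and sets, intervals, shares and plots with Python 3.11.15, numpy 2.4.6, pandas 2.3.3, scipy 1.17.1 and matplotlib 3.10.9. The lower level of the high pair and the higher level of the low pair define each ratio; MCC was placed by their geometric mean. Counts under 3 were set to 3 reads. With 1 library per group no test was made. The rule was tested on simulated data drawn from these libraries with counting error only, in which 100 of 100 genes changed 16-fold were recovered in each direction with 0 false calls, which checks the arithmetic alone.

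The members and the 33 gene lists (714 genes, 711 in the table) were chosen with earlier results of these data known. Genes named by rule, leaving out predicted genes, clones, mitochondrial genes, antigen receptor segments and, outside the red cell list, haemoglobins, were in each set the 10 with the largest counting bound of the ratio, the 6 with the highest and the 6 with the lowest MCC relative to the high pair, the 4 most skewed each way within the high pair, the 3 on each side of the threshold and cell type markers, and in each list the 2 highest by pair and the 2 highest in MCC. Other genes named come from the lists and were chosen after their values were seen, as was the exclusion of genes low in iPSC. Gene types and overlaps came from GENCODE M21, promoters from RefSeq (GRCm38.p6). Alternatives were DESeq2 1.42.0 size factors, total counts, removal of the most abundant genes before scaling, other thresholds, removal of a library or of predicted genes and segments, and other readings of MCC. A few genes that the naming rule selects are not reported here.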

Additional observations from a re-analysis of the deposited data

How the results depend on the processing

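With 1 library per kind of cell, none of these results has a replicate check. The MCC shares were 40.1% to 44.2% for the blood set and 93.8% to 95.4% for the cultured set, with 677 to 1146 blood-set and 456 to 925 cultured-set genes, under DESeq2 size factors, total counts, removal of abundant genes before scaling, 4-fold and 16-fold thresholds and the counting bound. With no minimum level there were 1433 blood-set genes, 31.3% with MCC on the blood side, and 999 cultured-set genes, 89.2% with MCC on the cultured side. At a minimum of 20 CPM the shares were 49.4% of 563 blood-set genes and 96.5% of 345 cultured-set genes. Without PB the blood-side share was 33.4% of 1157 genes, and without BM 27.2% of 1399, with 1054 cultured-set genes. Without MEF the shares were 47.97% and, of 1312 cultured-set genes, 56.3%, so the cultured-set reading of MCC rests on MEF being in the pair. Without iPSC they were 46.2% and, of 1205 cultured-set genes, 90.8%. Without predicted genes and segments the blood-side share was 47.2%. Read as MCC at or above the lower library of the high pair, the shares were 10.2% and 53.6%, and read as MCC at 5 CPM or more they were 46.9% and 87.5%. The other scalings moved the median log2 ratio of MCC to another library by up to 0.39 in size (-0.39 against iPSC by total counts, -0.28 against PB by DESeq2). A level of 0 reads allows up to 3, or 0.0694 CPM in MCC. No paired analysis was possible because each group holds 1 library.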

Other observations

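Among the 86 blood-set genes at or above the lower native level in MCC were complement and interferon-induced genes that belong to none of the lists. They were chosen for mention with their levels known, and no count over them is given. Cfp, encoding properdin, stood at 326 CPM in MCC, against 62.0 in PB and 211 in BM and 2.82 in MEF and 2.45 in iPSC. C4b and C3, components of the complement cascade, were at 94.5 and 239 CPM in MCC against 24.1 and 238 in PB and 18.4 and 1303 in BM. MCC was above both native libraries for Cfp and C4b. Of the interferon-induced genes, Oasl2 was at 112 CPM in MCC, 190.1 in PB and 84.2 in BM, and Irf7, the factor that drives type I interferon genes, was at 114, 181 and 108 CPM.

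MCC exceeded MEF by 4-fold or more for 19 of the 649 cultured-set genes, and the share over all genes was not computed. The genes named here were likewise chosen with their levels known. Nid2, a basement membrane protein gene, was one of them, with 228 CPM for MCC against 22.5 for MEF and 78.4 for iPSC. Anpep, a surface peptidase gene, was another, with 132, 16.1 and 11.2 CPM in the same order. Acta1 and Des, encoding skeletal actin and desmin, were lower in MCC than in MEF, at 0.393 and 0.602 CPM against 61.4 and 16.5. The tendon factor gene Scx was at 0.579 CPM in MCC and 9.41 in MEF.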
